A study of Drosophila melanogaster with 4 samples.

Results

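Odorant-binding protein (Obp) genes and chemosensory receptor genes were taken from the array by symbol: Obp, Or, Gr or Ir followed by a digit, or Orco. The rule found 21 of the 2377 genes that had a symbol of their own, on 54 of 16896 spots. They were 20 Obp genes on 52 spots and the gustatory receptor gene Gr97a on 2. No odorant receptor (Or), ionotropic receptor (Ir) or Orco spot carried a symbol of its own in the annotation used, so the comparison of families came down to the Obp genes and 1 gustatory receptor. For scale, the RefSeq gene table (assembly Release 6) lists 51 Obp, 60 Or, 60 Gr and 66 Ir genes under the same symbols.

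The study sprayed adult Oregon-R females of Drosophila melanogaster, 10 to 20 days old, with a seed extract of black pepper (Piper nigrum), a plant studied as a botanical insecticide. The treated flies received 2 mL of extract at 0.9 mg/mL in 99% ethanol from a Potter's tower, which lays down an even topical spray, and the control flies received 2 mL of 99% ethanol alone. All flies were thus exposed to ethanol, and no unsprayed group was analysed here. RNA was taken from whole females after 4 h, in pools of about 240 insects.

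Each of 2 replicate pools of treated and control flies, numbered 1 and 3 in the labels, was hybridised on 2 arrays with the dyes exchanged, giving 4 arrays. An array is named here by the dye on the extract sample. Each value below is the log2 of extract over ethanol, with spots averaged per gene and arrays averaged per pool, and errors are the standard error of limma with n = 2 pools. The direction is an assumption: nothing in the sources used states which sample is the numerator, and the opposite order would turn each sign given here. The ratios may instead have been deposited by dye, in which case the mean with the 2 Cy5 arrays turned in sign would be the effect of treatment, and the mean of each member in that reading is given near the end. Ratios hold no expression levels, so whether a gene was expressed in these flies, and in which organ, could not be checked. In whole-fly RNA, a loss of cells and a loss of RNA per cell also cannot be told apart.

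Odorant-binding proteins are small secreted proteins, most with conserved cysteines that form disulfide bridges. In insects many are made by support cells of antennal and taste hairs and released into the fluid around sensory neurons, where they bind odorants, pheromones or tastants. Receptors of the Or, Gr and Ir families sit in the neurons, and Orco is the shared partner of the Or receptors. Several Obp genes are known to be active outside the senses, in glia, fat body or reproductive organs.

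None of the 20 Obp genes nor Gr97a differed between extract and ethanol in the limma test over all 13607 features, where 6 features passed at an adjusted p under 0.05, a share of 0.0441%. At an unadjusted limma p under 0.05 there were also 0 of the 21, against 3.83% of all named genes. The Obp genes split evenly, with 10 above 0 and 10 below. Their median log2 ratio was 0.01, beside 0.01 for all named genes and 0.00 for all features. They ran between -0.31 and 0.41 with a standard deviation across genes of 0.18, beside 0.20 across all named genes. Gr97a lay at 0.24 ± 0.16 (limma, adjusted p = 0.787), within the range of the Obp genes. With 1 receptor gene, a difference between the families could not be tested.

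The 95% interval of limma lay within 2-fold in either direction for 20 of 20 Obp genes and for Gr97a, against 98.9% of all named genes. It lay within 1.5-fold for 15 of the 20 Obp genes, against 84.4% of named genes. These intervals borrow their variance from all features, since 2 pools leave 1 residual degree of freedom. With so few pools the smallest two-sided p of an exact sign test is 0.5, so none was used.

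**Figure D1:**
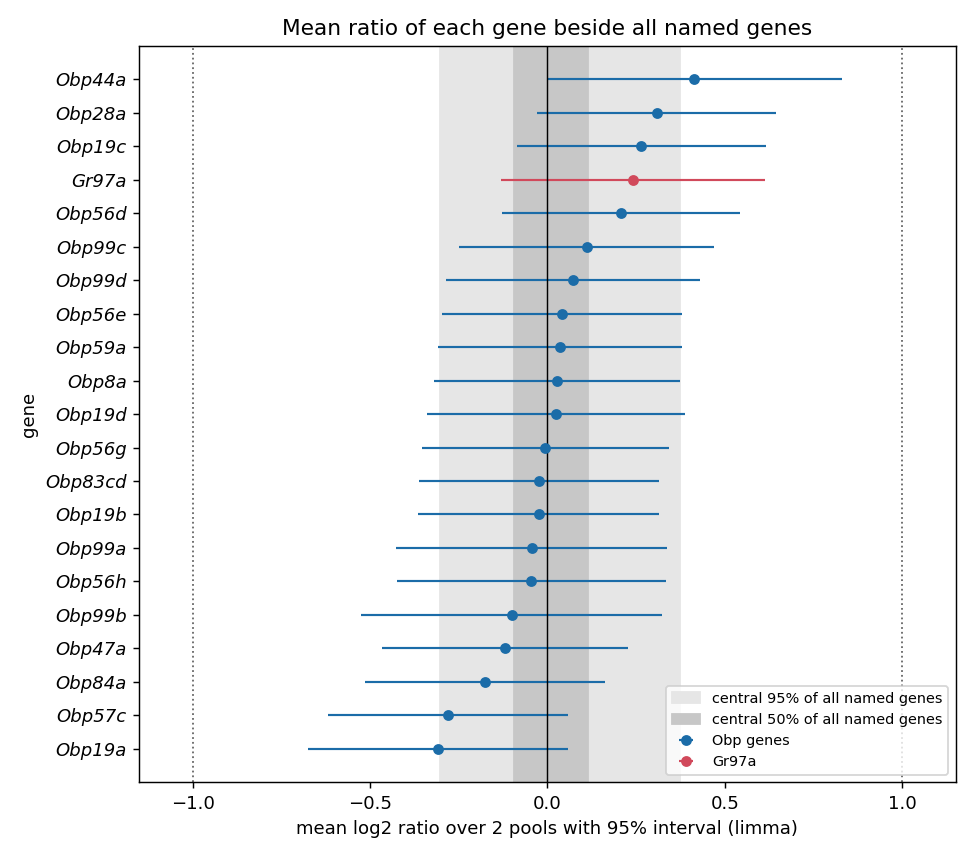
Mean log2 ratio over 2 pools (horizontal axis) of the 20 Obp genes (blue) and Gr97a (red), with the 95% interval of limma as bars, in order of the mean. Grey bands hold the central 50% and central 95% of the 2377 named genes and dotted lines mark 2-fold. Every interval includes 0 and lies within 2-fold.

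Obp44a had the highest mean. In Drosophila this gene is known for its expression in glia of the nervous system. Its log2 ratios were 0.25 on the Cy3 array and 1.23 on the Cy5 array of replicate 1, and 0.11 and 0.06 on the Cy3 and Cy5 arrays of replicate 3. All 4 were above 0, but 1 array held most of the mean of 0.41 ± 0.18 (limma, adjusted p = 0.677). Without that array the mean was 0.17. The value of 0.06 averaged 2 spots of opposite sign, at 0.58 and -0.46. Of the 8 spot values of Obp44a, 7 were above 0.

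Obp28a, also known as Pbprp5, is abundant in the antenna and binds plant volatiles. Averaged over its 2 spots, the ratios were more even. They lay at 0.15 and 0.38 on the Cy3 and Cy5 arrays of replicate 1 and at 0.50 and 0.19 on those of replicate 3. The single spots were less even, at -0.45 and 0.76 on the Cy3 array of replicate 1. On the Cy5 array of replicate 3 the spots lay at 0.53 and -0.14. Of the 8 spot values of Obp28a, 6 were above 0. The mean of 0.31 ± 0.15 did not pass (limma, adjusted p = 0.706). The pools lay close together, at 0.27 in replicate 1 and 0.35 in replicate 3.

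Obp19c was the third member above 0 on every array. Its log2 ratios were 0.12 and 0.14 on the Cy3 and Cy5 arrays of replicate 1 and 0.44 and 0.37 on those of replicate 3. The arrays of a pool were close to each other and the pools differed, at 0.13 and 0.40. The mean was 0.26 ± 0.16 (limma, adjusted p = 0.756).

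Obp56d, the fourth highest Obp gene, lay at -0.04 and 0.43 in replicate 1 and at 0.06 and 0.38 in replicate 3, Cy3 array before Cy5 array. Here the 2 Cy5 arrays were high and the 2 Cy3 arrays near 0, in both pools. The mean was 0.21 ± 0.15 as deposited, and -0.20 ± 0.15 with the Cy5 arrays turned.

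Gr97a, a member of the insect gustatory receptor family, had 0.39 and -0.34 on the Cy3 and Cy5 arrays of replicate 1 and 0.57 and 0.35 on those of replicate 3. The Cy5 array of replicate 1 was below 0 and the other 3 were above. Without it the mean was 0.42, and without the Cy3 array of that pool 0.06. The 2 spots of Gr97a differed: over the 4 arrays the first averaged -0.0075 and the second 0.49. On the Cy5 array of replicate 3 the spots lay at -0.23 and 0.92.

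At the low end, Obp19a had the lowest mean, -0.31 ± 0.16 (limma, adjusted p = 0.736). It lay at -0.54 and -0.47 on the Cy3 and Cy5 arrays of replicate 1 and at -0.11 and -0.12 on those of replicate 3. Each of its 2 spots was below 0 on all 4 arrays, so 8 of 8 spot values were on 1 side. Of named genes with 2 spots, 2.15% had all 8 values below 0.

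Obp57c belongs to the group whose neighbours Obp57d and Obp57e are known for taste and host choice in Drosophila species. Its ratios were -0.34 and -0.14 in replicate 1 and -0.35 and -0.29 in replicate 3, Cy3 array before Cy5 array. The mean was -0.28 ± 0.15 (limma, adjusted p = 0.740), with the pools at -0.24 and -0.32. Its 2 adjacent spots did not share this: the first averaged -0.61 over the 4 arrays and the second 0.05.

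Obp84a, the earlier Pbprp4, lay at -0.15 and -0.08 on the Cy3 and Cy5 arrays of replicate 1 and at -0.02 and -0.45 on those of replicate 3. It was the third member below 0 on every array, with a mean of -0.18 ± 0.15 that rested most on the last array and was -0.07 without it. Obp47a lay at -0.09, -0.39 and -0.16 on 3 arrays and at 0.16 on the Cy5 array of replicate 3, with a mean of -0.12 ± 0.15.

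Of the 20 Obp genes, 3 were therefore above 0 on all 4 arrays (Obp44a, Obp28a and Obp19c) and 3 below (Obp84a, Obp57c and Obp19a). Among named genes these shares were 8.83% and 7.99%. With the Cy5 arrays turned, 0 Obp genes kept 1 sign on all 4 arrays, against 12.5% of named genes. In that reading 0 members and 0 features in all passed the test, and 0 members had an unadjusted limma p under 0.05, against 2.1% of named genes.

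**Figure D2:**
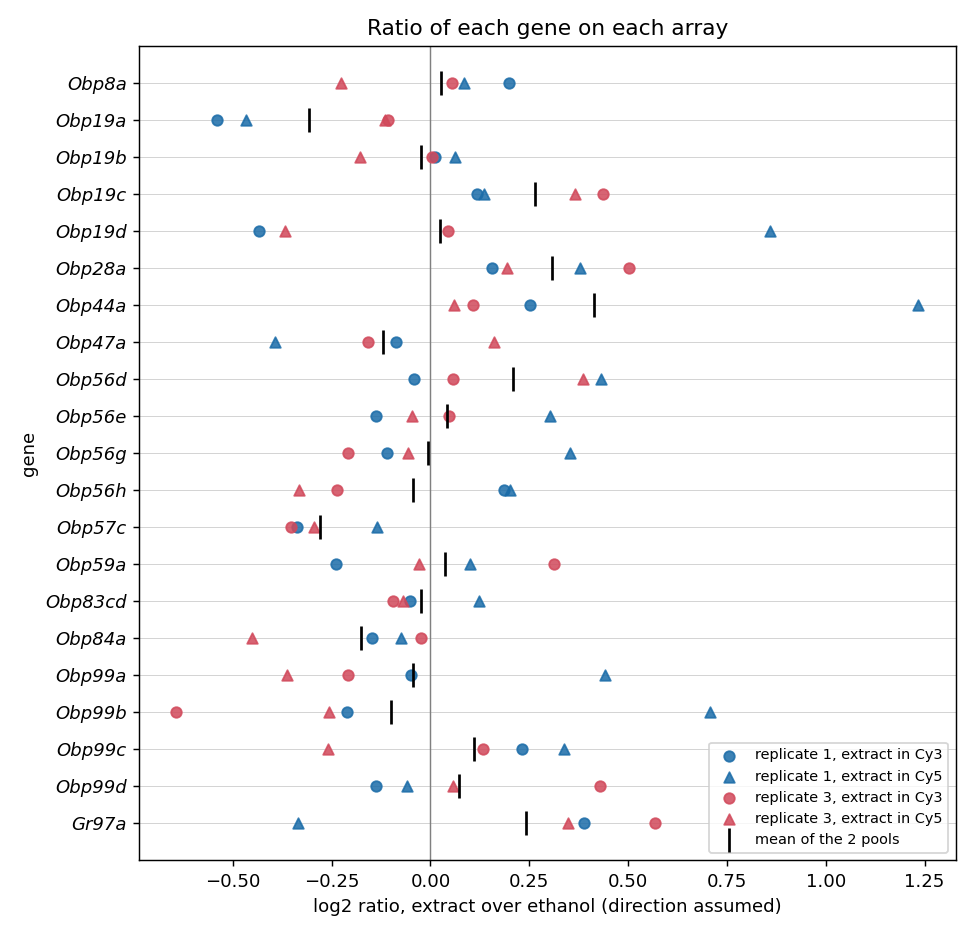
Log2 ratio (horizontal axis) of each gene on each array. Blue marks replicate 1, red replicate 3, circles the arrays with extract in Cy3, triangles those with extract in Cy5, and black bars the mean of the 2 pools. Obp44a at 1.23 on the Cy5 array of replicate 1 is the 1 value beyond 2-fold.

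Genes of 3 genomic groups were measured with 4 members each, and each group held genes above 0 and genes below. Obp19a, Obp19b, Obp19c and Obp19d stand side by side in the RefSeq gene table with 0 protein-coding genes between them. They held the lowest Obp gene of the array, Obp19a at -0.31, and the third highest, Obp19c at 0.26. Obp19b lay at -0.02 ± 0.15 and Obp19d, the earlier Pbprp2 of antennal and taste organs, at 0.03 ± 0.16. As the mean of its 2 spots, Obp19b stayed near 0. Its ratios were 0.01 and 0.06 on the arrays of replicate 1 and 0.00 and -0.18 on those of replicate 3. The spots of Obp19b disagreed, and over the 4 arrays the first averaged -0.35 and the second 0.30. Obp19d varied widely, with -0.43 and 0.86 on the Cy3 and Cy5 arrays of replicate 1 and 0.04 and -0.37 on those of replicate 3. The 2 arrays of the same RNA in replicate 1 thus gave opposite signs for Obp19d.

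The Obp56 group had 2 members above 0 and 2 below. Obp56e, at 0.04 ± 0.15, had -0.14 and 0.30 in replicate 1 and 0.05 and -0.05 in replicate 3, Cy3 array first. Obp56g, a gene known for its product in the male seminal fluid, lay at -0.01 ± 0.15, with -0.11 and 0.35 in replicate 1 and -0.21 and -0.06 in replicate 3. Obp56h, known for a part in male mating behaviour, had 0.19 and 0.20 on the arrays of replicate 1 and -0.24 and -0.33 on those of replicate 3. Averaged over the 4 spots of Obp56h, the arrays of a pool were alike and the 2 pools opposed. The mean of -0.04 ± 0.17 thus described neither pool. This pattern was not that of its 2 pairs of spots taken singly. The first pair lay below 0 in both pools, at -0.12 and -0.44. The second pair lay at 0.51 and -0.13, and its arrays differed within replicate 3, at 0.23 and -0.49.

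In the Obp99 group 4 of 4 genes had pool means of opposite sign, where 53.6% of all named genes had both of 1 sign. Obp99a lay at 0.20 in replicate 1 and -0.29 in replicate 3, Obp99b at 0.25 and -0.45, and Obp99c at 0.28 and -0.06. Averaged over its 4 spots, Obp99d ran the other way, at -0.10 in replicate 1 and 0.24 in replicate 3. That held only for its second pair of spots, at -0.36 and 0.55, which included a spot at 3.03 in replicate 3. Its first pair lay at 0.16 and -0.06, with the signs of Obp99a, Obp99b and Obp99c. Obp99b is known as tsx, a gene of the fat body in the head that differs between the sexes. It had -0.21 and 0.71 on the Cy3 and Cy5 arrays of replicate 1 and -0.64 and -0.26 on those of replicate 3, the widest spread over arrays of the 20, 1.35. Obp99a had -0.05 and 0.44 in replicate 1 and -0.21 and -0.36 in replicate 3, and Obp99c had 0.23 and 0.34 in replicate 1 and 0.13 and -0.26 in replicate 3. The means of the 4 genes lay between -0.10 and 0.11.

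The 3 genes not yet described had means near 0. Obp59a, a gene needed for humidity sensing in the antenna, had -0.24 and 0.10 in replicate 1 and 0.31 and -0.03 in replicate 3, with a mean of 0.04 ± 0.15. Obp8a had 0.20 and 0.08 in replicate 1 and 0.05 and -0.23 in replicate 3, with a mean of 0.03 ± 0.15. Obp83cd, which encodes a protein with a doubled odorant-binding domain, had the narrowest range over the arrays of the 20 Obp genes, 0.22, with Obp57c level at 0.22. It lay at -0.05 and 0.12 in replicate 1 and at -0.10 and -0.07 in replicate 3, and averaged -0.02 ± 0.15. The narrow range of Obp83cd holds only for the mean of its 2 spots, which had opposite signs on every array. On the Cy5 array of replicate 1 these spots lay at 0.88 and -0.64.

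Both pool means had 1 sign for 8 of 20 Obp genes, against 53.6% of all named genes, a difference that was not tested. Some pool means lay at almost 0, such as 0.0022 for Obp47a and 0.00016 for Obp56e in replicate 3. In replicate 1, 14 of 20 were above 0 with a median of 0.12, and in replicate 3, 8 of 20 with a median of -0.08. By array, the number above 0 was 7 and 15 on the Cy3 and Cy5 arrays of replicate 1 and 11 and 6 on those of replicate 3. Named genes had between 49.5% and 52.0% above 0 on each array, so the Cy5 array of replicate 1, with a median Obp ratio of 0.17, and the Cy5 array of replicate 3, with -0.09, lay to opposite sides. Across the 20 genes, the pool means had a Pearson r of 0.12 and a Spearman rho of 0.06, beside 0.17 and 0.15 across named genes. The 2 arrays of replicate 3 had a Pearson r of 0.53 across the 20 genes and those of replicate 1 one of 0.31, beside 0.10 and 0.05 across named genes. Between pools, the Cy3 array of replicate 1 had 0.32 and 0.24 with the Cy3 and Cy5 arrays of replicate 3. The Cy5 array of replicate 1 had -0.01 and -0.02 with them. Across named genes these 4 values were 0.14, 0.14, 0.03 and 0.07. These are descriptions over genes that share arrays.

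**Figure D3:**
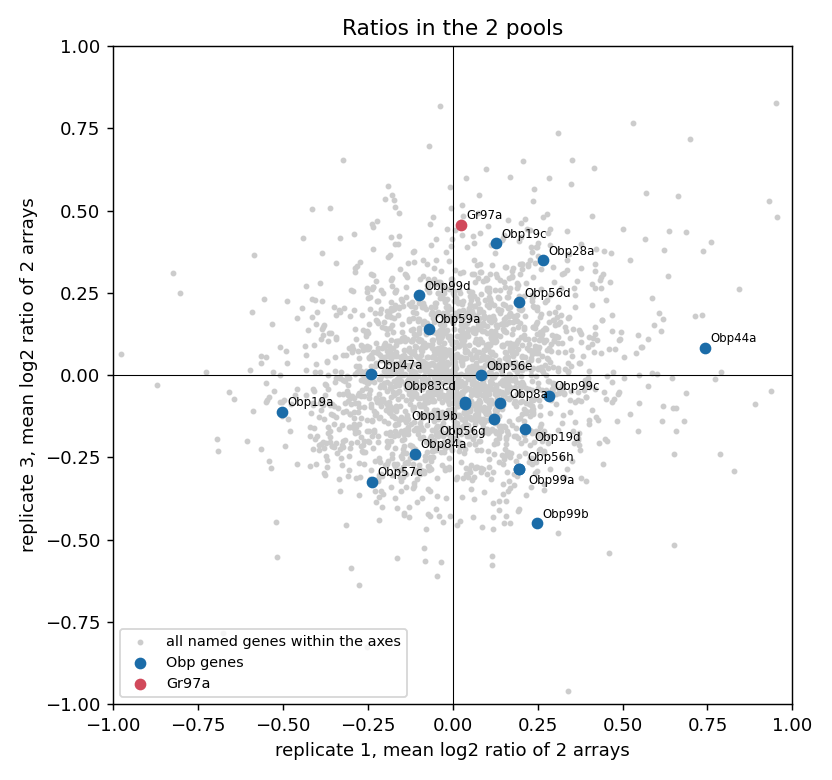
Mean log2 ratio in replicate 1 (horizontal axis) and in replicate 3 (vertical axis), 2 arrays each, for the 20 Obp genes (blue), Gr97a (red) and the named genes that fall within the axes (grey). Obp28a, Obp19c and Obp56d lie in the upper right corner, Obp19a, Obp57c and Obp84a in the lower left, and Obp99a, Obp99b and Obp56h to the lower right.

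Each gene was spotted as adjacent pairs, 27 pairs for the 21 genes. The median difference within a pair was 0.39 and 0.46 on the Cy3 and Cy5 arrays of replicate 1 and 0.30 and 0.41 on those of replicate 3. For the pairs of all named genes these medians were 0.30, 0.24, 0.19 and 0.28. The 2 spots farthest apart were those of Obp99d on the Cy3 array of replicate 3, at 3.03 and -1.16. Of the 54 spots, 9 kept 1 sign on all 4 arrays, a share close to the 15.7% of all spots of named genes.

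A second, separate pair of spots was printed for 6 Obp genes, so that their ratios can be set side by side. For Obp19c the pairs averaged 0.29 and 0.24 over the 4 arrays, and for Obp56d 0.14 and 0.28. In both genes the 2 pairs had means above 0 in each pool. For Obp99d the pairs averaged 0.05 and 0.10, but they had opposite signs on 4 of 4 arrays. The first pair of Obp99d lay at 0.12, 0.21, -0.08 and -0.05 and the second at -0.39, -0.32, 0.93 and 0.16, in the order of the Cy3 and Cy5 arrays of replicate 1 and then of replicate 3. The second pair held the spot at 3.03, so its mean above 0 rested on that spot's array. For Obp56h the pairs averaged -0.28 and 0.19, for Obp59a -0.18 and 0.25, and for Obp56g 0.10 and -0.11. In these 3 genes the pairs opposed each other, and which sequence each spot carries was not used here.

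**Figure D4:**
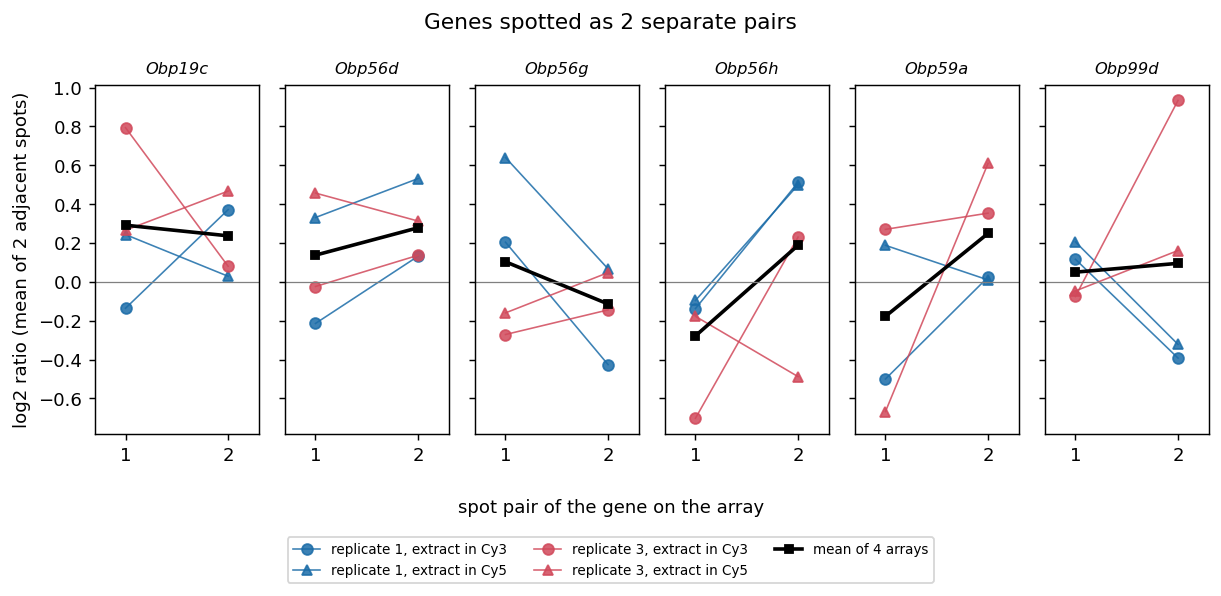
Log2 ratio (vertical axis) of the first and the second spot pair of the 6 Obp genes printed as 2 pairs, by array, with the mean of 4 arrays in black. The pairs of Obp99d lie on opposite sides of 0 on every array. Mean lines stay on 1 side of 0 for Obp19c, Obp56d and Obp99d and cross it for Obp56g, Obp56h and Obp59a.

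With the Cy5 arrays turned, the order of the genes was another. The lowest Obp means were then those of Obp99b at -0.33 ± 0.15, Obp44a at -0.23 ± 0.17 and Obp19d at -0.22 ± 0.21, and the highest was Obp8a at 0.10 ± 0.15. The median was -0.01, with 9 of 20 above 0. Gr97a and Obp99d had the same mean in both readings to 2 decimals, at 0.24 ± 0.15 and 0.07 ± 0.15 in the turned one. Of the genes that stood highest or lowest as deposited, Obp28a then averaged 0.021, Obp19c 0.013, Obp57c -0.065 and Obp19a -0.016. These 4 kept their sign but lay near 0, so their size rested on the ratios having been deposited by treatment and not by dye. Obp56d at -0.20 and Obp84a at 0.089 changed sign, and Obp47a averaged -0.0032. In the Obp56 group Obp56e averaged -0.087, Obp56g -0.15 and Obp56h 0.021, and in the Obp99 group Obp99a averaged -0.084 and Obp99c 0.071. The turned means of Obp19b, Obp59a and Obp83cd were 0.033, 0.0010 and -0.050.

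Of 98 other listed genes of chemosensation, 9 had spots with a symbol of their own, and the array may carry more of them on its spots without a symbol. Of the 9, 0 passed the test over all features in either direction, with 0 at an unadjusted limma p under 0.05. Pino, a gene linked to odour-guided behaviour, was highest at 0.32 ± 0.15 (limma, adjusted p = 0.698), above 0 on all 4 arrays. lush, the odorant-binding protein gene Obp76a, which is needed for the response to a male pheromone and for the avoidance of strong alcohol vapour, lay at -0.11 ± 0.16. It had 0.38 and -0.27 in replicate 1 and -0.35 and -0.20 in replicate 3. Galphaq, a G protein subunit, lay at -0.03, and the sensory-organ transcription factors amos and sens at -0.11 and -0.02. With the Cy5 arrays turned the order was another. Cyp4g15 was then highest at 0.23, against 0.14 as deposited, and fru lowest at -0.43, against -0.06. Pino lay at 0.052. The genes that changed sign were lush at 0.13, amos at 0.081, Galphaq at 0.027 and dsx at 0.21. As deposited, dsx had been the lowest, at -0.12.

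Neuronal markers also gave no call. Of 18 listed genes 6 were measured, 4 above 0 and 2 below, between -0.13 (unc-13) and 0.25 (nSyb), with a median of 0.10. With the Cy5 arrays turned, unc-13 lay at 0.22 and nSyb at -0.060, each with its sign changed. Of the 8 listed genes of antennal support cells, 2 were measured, Obp28a at 0.31 and lush at -0.11. Genes of male organs, absent from females, had means between -0.02 and 0.03, 3 of 3 measured. Single arrays ran wider, with dj at 0.43 on the Cy5 array of replicate 1 and -0.68 on that of replicate 3. With the Cy5 arrays turned, Acp36DE lay at -0.11, Acp53C14a at -0.03 and dj at 0.11. The part of any such shift in the Obp ratios was not tested.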

How the data were processed

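The authors deposited 1 log2 ratio per spot and array, for 16896 spots, with the log base, numerator, image analysis and normalization not given in the sources used here. Base 2 was assumed, and another base would rescale each value by 1 factor. Each array was centred on its median. Symbols came from the platform annotation, with 33.5% of spots naming 1 gene, and 21 of 21 member symbols matched RefSeq by gene number. Spots of a gene were averaged per array, and the 2 dye-swapped arrays of a pool were averaged to 1 replicate. All 13607 features were fitted with lmFit and eBayes of limma 3.58.1 (R 4.3.3), two-sided against 0, with Benjamini-Hochberg adjustment at 0.05. The fit was tested on simulated data with changes of 2 log2 units, larger than the mean of any member. That check does not show whether changes of the members' size would be found. P-values and errors rest mostly on a spread shared by all features, of which 11230 were single spots. In eBayes this shared spread carried 8.19 degrees of freedom, against 1 from the 2 pools of a gene. Errors of the 21 genes thus lay between 0.149 and 0.188, however far apart their pools were. Obp28a, with pools at 0.27 and 0.35, had 0.15, and Obp44a, with pools at 0.74 and 0.08, had 0.18. With few arrays, precision is low. Spot intensities were not used.

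The members and lists were chosen with earlier results of these data known. All Obp genes are named. The values on each array were to be given for the 4 highest and 4 lowest Obp genes, for Gr97a and for members of 1 sign with a mean of at least 0.2 in size; the remaining genes were added after the values were seen. Alternatives were the Cy5 (reverse-label) arrays turned, medians of spots, no centring, equal spread, a replicate block, named genes alone, genes with at least 2 spots, and leaving out each array or pool.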

Additional observations from a re-analysis of the deposited data

Results flagged for a closer look

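Obp44a on the Cy5 array of replicate 1 stood far from the other arrays, at 1.23 against 0.06 to 0.25 on the other 3. These are means of its 2 spots, and single spots on the other 3 ran between -0.46 and 0.58. Among the 21 genes and the Obp median, 22 sets of 4 arrays were compared in this way, and 1 such value was found. A rate of 1 in 20 would give 1.1, but that rate was assumed and not measured on these data. The sets also share arrays, and the cause of the value was not tested.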

How the results depend on the processing

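No member passed the limma test in any alternative that allowed a test, and the Obp median lay between -0.08 and 0.12 in all of them. At an unadjusted limma p under 0.05, 5 of 21 members were found with the replicate block (Obp19a, Obp19c, Obp28a, Obp44a and Obp57c), against 7.40% of named genes, and 4 of 21 with named genes alone (Obp19a, Obp28a, Obp44a and Obp57c), against 8.46%, where adjusted p was at least 0.399 and 0.537. There was 1 with arrays of equal spread (Obp44a, against 4.21% of named genes), 1 without the Cy3 array of replicate 1 (Obp44a, 3.62%) and 1 without its Cy5 array (Gr97a, 3.58%). All named genes have 2 spots or more, so that filter equals named genes alone. The replicate block estimated a within-pool correlation of -0.244 and so did not hold the 2 arrays of a pool together as a replicate. Gr97a, Obp19a, Obp19c, Obp28a and Obp57c kept their sign throughout. With the Cy5 arrays turned, however, the last 4 lay near 0, at -0.016, 0.013, 0.021 and -0.065, and Gr97a at 0.24. In that reading 7 changed sign: Obp19b (0.033), Obp19d (-0.22), Obp44a (-0.23), Obp56d (-0.20), Obp56e (-0.087), Obp56h (0.021) and Obp84a (0.089). Without 1 array or 1 pool, the lowest and highest values of genes that changed sign were -0.087 and 0.037 for Obp19b, -0.30 and 0.35 for Obp19d, -0.24 and 0.0022 for Obp47a, -0.069 and 0.15 for Obp56e, -0.13 and 0.12 for Obp56g, -0.28 and 0.19 for Obp56h, -0.070 and 0.14 for Obp59a, -0.083 and 0.035 for Obp83cd, -0.086 and 0.14 for Obp8a, -0.29 and 0.20 for Obp99a, -0.45 and 0.25 for Obp99b, -0.062 and 0.28 for Obp99c, and -0.10 and 0.24 for Obp99d. The cause was not tested. Ratios without intensities cannot show which spots were dim.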

Other observations

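Spots annotated to several genes were kept out of the comparison, and 8 of them carried an Obp or Gr symbol. The 2 spots shared by the gustatory receptor genes Gr36b and Gr36c lay at 0.44 and -0.10 on the Cy3 and Cy5 arrays of replicate 1 and at 0.38 and 0.34 on those of replicate 3, with a mean of 0.26. Gr97a, as the mean of its 2 spots, likewise had the Cy5 array of replicate 1 below 0 and the other 3 above. The 2 spots shared by Obp56b and Obp56c averaged 0.02, and the 4 spots shared by Obp57e and CG30148 averaged 0.03, each with arrays on both sides of 0. No test was run on these spots as genes.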
